A study of Mus musculus with 6 samples.

Results

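The nuclear genes of mitochondrial complex I were examined in EDL (extensor digitorum longus, a hindlimb muscle of fast-twitch fibres) of mice that lack Akt in skeletal muscle. Coordinates below are those of RefSeq on GRCm38.p6, the build named mm10 in the labels. Members were the rows of the deposited gene count table whose symbol begins with Nduf. There were 45 of them among 24411 genes, namely 7 core subunits, 31 genes named as accessory subunits and 7 Ndufaf assembly factors. The data were RNA-seq libraries of EDL from 3 mAktDKO mice and 3 control floxed mice, all on the C57BL/6J strain and 50 weeks old. Both groups carried floxed alleles of Akt1 and Akt2, and the mAktDKO mice carried in addition Cre recombinase knocked in behind the Mlc1f promoter, which the study describes as active mainly in fast-twitch muscle and little in satellite cells. The labels give no Cre for the control mice, so the Cre allele and the loss of Akt cannot be told apart here. Whole muscle was extracted, so the other cells of the tissue contributed RNA, and fewer fibres and less RNA per fibre cannot be told apart in such samples. The libraries are separate samples of each group in the labels, and the p-values measure the spread between these samples.

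Complex I, or NADH:ubiquinone oxidoreductase, takes electrons from NADH in the mitochondrial matrix, passes them along a chain of iron-sulfur clusters to ubiquinone and pumps protons across the inner membrane. Its matrix arm holds the redox centres and its membrane arm the proton channels. The core subunits of the matrix arm are encoded in the nucleus, those of the membrane arm in the mitochondrial genome, and the accessory subunits surround both arms. The assembly factors build the complex and are not part of the finished enzyme. Akt is the kinase through which insulin acts on muscle, and the comparison asked how the transcripts of this enzyme stood when the kinase was lost. The core genes of the mitochondrial genome were not analysed here.

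Total counts were 13738795 to 15445523 per mouse, and 3 counts, taken as the smallest level that this depth can show, corresponded to 0.180 to 0.227 CPM (counting error only; CPM are counts relative to library totals adjusted by TMM scaling, which sets most genes level between libraries, unless library totals are named). Ttn, the gene with the most counts, took 10.7% to 14.2% of a library, and no library was a copy of another. The targeted gene Akt2 had 51.3, 49.1 and 52.7 CPM in mAktDKO EDL and 172, 133 and 143 CPM in control EDL (log2 fold change -1.55, standard error 0.11, adjusted p = 0.000923, edgeR's quasi-likelihood test). Akt1 had 58.9, 56.8 and 51.4 CPM in mAktDKO EDL and 66.4, 65.5 and 66.5 CPM in control EDL (log2 fold change -0.25, standard error 0.08, adjusted p = 0.115). The 3 mAktDKO mice were below the 3 control mice for both genes. The counts are per gene, and so the loss of the floxed part of Akt1 cannot be read from them. Without any one of the mAktDKO mice, the adjusted p of Akt2 was 0.0165 to 0.0208. All 10 fast fibre genes on the marker list were detected in every library, and their summed level was 109436 to 123147 CPM in the mAktDKO mice and 126780 to 137624 CPM in the control mice.

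The promoters of the members with the smallest p, Ndufb5, Ndufb2 and Ndufa8, are shown first. Beside them stands that of Ndufb4, whose groups overlapped and whose log2 fold change was above 0. Ndufa4l2, the only other member above 0, had no promoter window. RefSeq windows of 300 bases (250 before and 50 after the start, GRCm38.p6) were found for 39 of the 45 members, and the 150 bases before the start at which the window was placed are printed 5′ to 3′ on the gene's own strand. For Ndufb5 that start lies 6 bases inside the gene interval given with its values, and for the other 3 genes it is the 5′ end of the interval. Capitals mark matches to the motifs searched on both strands.
Ndufb5, chr3:32736913-32737062, + strand: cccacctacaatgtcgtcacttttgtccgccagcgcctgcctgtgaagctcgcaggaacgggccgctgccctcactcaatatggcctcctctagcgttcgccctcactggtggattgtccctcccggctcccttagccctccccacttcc
Ndufb2, chr6:39592415-39592564, + strand: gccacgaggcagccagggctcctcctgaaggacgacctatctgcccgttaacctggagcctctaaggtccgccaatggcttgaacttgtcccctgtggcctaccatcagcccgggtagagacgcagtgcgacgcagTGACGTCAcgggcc
Ndufa8, chr2:36049339-36049488, - strand: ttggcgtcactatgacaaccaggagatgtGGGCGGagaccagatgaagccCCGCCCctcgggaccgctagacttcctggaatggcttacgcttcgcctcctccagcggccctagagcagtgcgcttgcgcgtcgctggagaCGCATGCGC
Ndufb4, chr16:37654369-37654518, - strand: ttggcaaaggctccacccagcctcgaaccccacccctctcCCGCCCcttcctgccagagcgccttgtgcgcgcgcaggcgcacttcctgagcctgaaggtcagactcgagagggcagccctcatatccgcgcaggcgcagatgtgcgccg
The Ndufa8 promoter held a match to the NRF1 motif (GCGCATGCG, here on the opposite strand) at its last bases and 2 matches to the SP1 motif (GGGCGG, the second on the opposite strand). The Ndufb2 promoter held a CRE motif (TGACGTCA), and Ndufb4 held 1 SP1 match. Ndufb5 held none of the motifs searched. Among the 41 windows of the 39 members, 4 held the NRF1 letters (9.76%), namely those of Ndufa8, Ndufa11, Ndufaf4 and Ndufaf5, against 3.51% of the 12485 windows of all tested genes. The CRE letters stood in 3 windows (7.32% against 2.97%), those of Ndufa10, Ndufa11 and Ndufb2, and the SP1 letters in 21 (51.2% against 61.8%). The GABP letters (CCGGAAGT) were found in 1 window, that of Ndufs3 (2.44% against 7.45%), the FoxO letters (GTAAACA) in 1, that of Ndufaf1 (2.44% against 2.51%), the TATA letters (TATAAA) in 5 (12.2% against 7.43%), and the ERR letters (TCAAGGTCA) in 0 (0.28% of all). A match says only that the letters are there, and no match says nothing of the factor.

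The YY1 letters (AAGATGGCG) were found in 5 member windows (12.2% against 2.87% of those of all tested genes), and they took the same place in each. These 5 sites are shown because the matched letters, in capitals, all contain the annotated start codon of the gene (GENCODE M21), with the motif beginning 23 to 36 bases downstream of the start at which the window was placed. For Ndufs7 this is an internal start, 344 bases inside the gene interval given with its values, and for the other 4 genes it is the 5′ end of the interval.
Ndufc1, chr3:51408917-51408941, - strand: tgcggaacAAGATGGCGccgtccgt
Ndufs7, chr10:80249465-80249489, + strand: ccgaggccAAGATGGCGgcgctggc
Ndufa9, chr6:126849099-126849123, - strand: tgtgggagAAGATGGCGgccgccgt
Ndufs6, chr13:73328433-73328457, - strand: tcaccggcAAGATGGCGgcggtgct
Ndufs4, chr13:114388045-114388067, - strand: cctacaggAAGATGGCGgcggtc
The genes belong to the core (Ndufs7), the matrix arm (Ndufa9, Ndufs6, Ndufs4) and the proximal membrane arm (Ndufc1). Their log2 fold changes, from -0.52 for Ndufs7 to -0.33 for Ndufc1, lay within the range of the other members. The letters overlap with the start of translation. They describe the sequence only, and binding of a factor was not tested.

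All 45 members passed the filter on low counts, which left 12892 genes. The fitted level was lower in mAktDKO muscle for 43 of the 45 members (47.5% of all tested genes), and for 39 when the libraries were scaled by their totals instead of TMM, which raised the median of all genes by 0.14. In both scalings 44 members lay below the median of all genes. The groups did not overlap for 34 members, all of them lower in the 3 mAktDKO mice than in any of the controls, which compares with 16.6% of all tested genes, and 0 members were higher without overlap (14.6% of all). With library totals, 24 members were lower without overlap (6.90% of all). Below, overlap between the groups refers to TMM-scaled levels, unless shares or library totals are named. The median log2 fold change was -0.36 over the members and 0.017 over all tested genes. The study called genes with DESeq2 at an adjusted p under 0.01. At this level DESeq2 here called 19 members lower (2.61% of the genes to which it gave an adjusted p), and 27 at 0.05 (5.49%). With edgeR, 0 members were called at 0.01 (0.0233% of all genes were called lower). In edgeR 37 members were lower at an unadjusted p under 0.05 (13.1% of all), and 24 with library totals (5.02% of all). At an adjusted p under 0.05, edgeR called 10 members lower (0.915% of all) and 0 higher (0.264% of all). These 10 were 27.0% to 39.2% lower. Their number depended on single mice, being 0 without any one of the mAktDKO mice (0.0230% to 0.0380% of all genes were then called lower) or without control mouse 3 (0.175%), 7 without control mouse 2 (0.792%) and 17 without control mouse 4 (1.84%), which had the lowest summed Nduf level of the controls. The share of all genes called thus moved the same way as the number of members. The last member inside this threshold was Ndufb9, at an adjusted p of 0.0482, and the first outside was Ndufs7, at 0.0506.

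**Figure D1:**
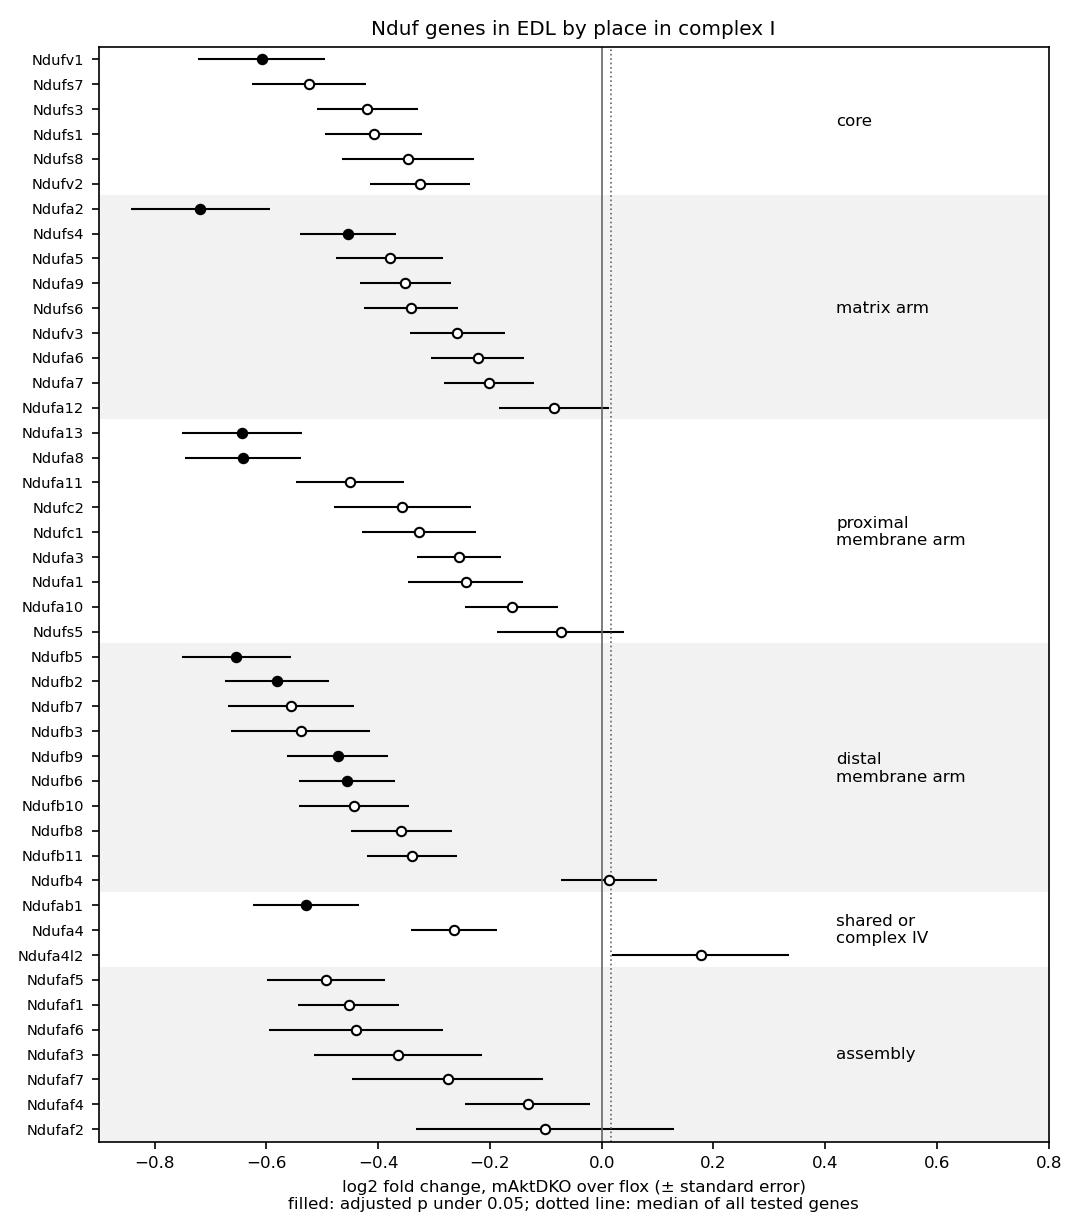
Log2 fold change (mAktDKO over flox, x axis, with the standard error from edgeR) of 44 Nduf genes, ordered within their place in complex I. With TMM scaling 42 of them lie left of 0, of which Ndufa12, Ndufs5, Ndufaf2 and Ndufaf4 lie right of it with library totals, and the filled points are the 10 with an adjusted p under 0.05.

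As a whole, the family took 3816, 3469 and 3733 CPM in mAktDKO EDL and 5153, 5069 and 4506 CPM in control EDL. The 3 mAktDKO mice were below the 3 control mice, and the same held for CPM from the unscaled library totals (3682 to 4095 against 4338 to 4920). The mean log2 CPM of the core subunits was 7.43, 7.25 and 7.36 in the mAktDKO mice and 7.88, 7.84 and 7.65 in the control mice. For the accessory subunits it was 5.94, 5.81 and 5.90 against 6.28, 6.29 and 6.15. For the assembly factors it was 3.52, 3.52 and 3.35 against 3.80, 3.90 and 3.65. With TMM scaling the groups were apart in each class, and the difference was -0.44 in the core, -0.36 in the accessory subunits and -0.32 in the assembly factors. Control mouse 4 lay nearest to the mAktDKO mice in each class. With library totals the groups stayed apart in the core and accessory classes (differences of -0.30 and -0.22) but overlapped in the assembly factors (-0.18), where mAktDKO mice 1 and 2, at 3.62 and 3.64, lay above control mouse 4 at 3.60.

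**Figure D2:**
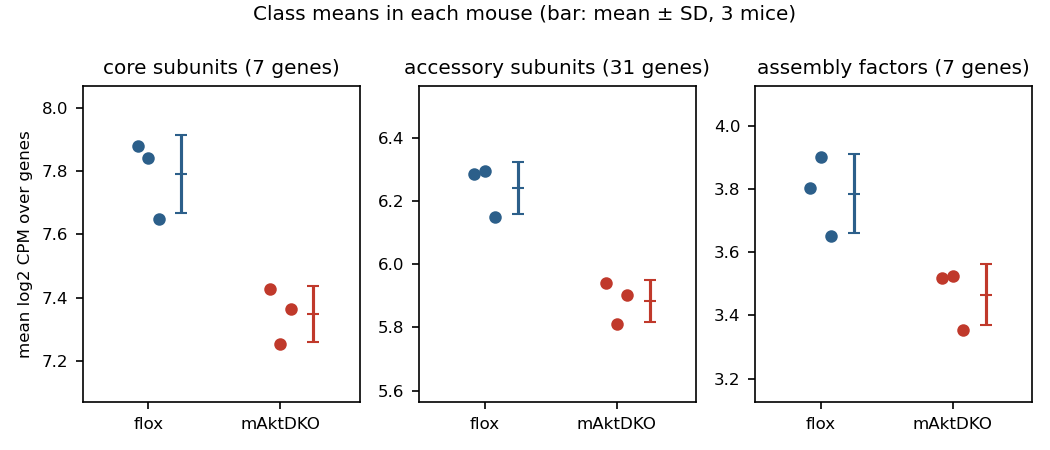
Mean log2 CPM (y axis, TMM-scaled, each panel spanning 1 log2 unit) of the core subunits, accessory subunits and assembly factors in each mouse, with the group mean ± SD at the side. With this scaling the 3 mAktDKO mice lie below the 3 control mice in each class, whereas with library totals the groups overlap in the assembly factors.

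The 7 core subunits carry the electron path. All 7 were lower in each scaling. With TMM scaling 6 of them were lower without overlap, and the log2 fold changes ran from -0.61 to -0.32 around a median of -0.42. Ndufv1, which binds NADH and the flavin that takes its electrons (chr19:4007499-4012755), had 219.8, 186 and 216 CPM in mAktDKO EDL and 363, 305 and 281 CPM in control EDL. The means were 207 ± 18.2 against 316 ± 41.8 CPM (mean ± SD, n = 3 mice each), which is 34.4% lower, and it was the only core subunit with an adjusted p under 0.05 in edgeR's quasi-likelihood test (log2 fold change -0.61, standard error 0.11, adjusted p = 0.0474). Ndufs7, which carries the cluster that hands electrons to ubiquinone (chr10:80249105-80256794), had 98.4, 85.2 and 89.0 CPM in mAktDKO EDL and 145, 131 and 116 CPM in control EDL (log2 fold change -0.52, standard error 0.10, adjusted p = 0.0506). Ndufs1, the largest subunit of the matrix arm, which holds several of the clusters (chr1:63143592-63176822), had 391, 358 and 398 CPM in mAktDKO EDL and 516, 532 and 474 CPM in control EDL (log2 fold change -0.41, standard error 0.087, adjusted p = 0.0562). None of these 3 genes overlapped between the groups. Ndufs3, which lies between these subunits and the membrane, had 123, 103 and 118 CPM in mAktDKO EDL and 159, 155 and 146 CPM in control EDL (-0.42, adjusted p = 0.0573). The iron-sulfur subunit Ndufv2, partner of Ndufv1, differed least (-0.32, adjusted p = 0.0849), with 176, 169.9 and 169 CPM in mAktDKO EDL and 199, 239 and 207 CPM in control EDL. Ndufs8, another iron-sulfur subunit, was the core gene whose groups overlapped (-0.35, adjusted p = 0.13), because control mouse 4 at 59.2 CPM lay below mAktDKO mouse 1 at 61.4 CPM. DESeq2 called 5 of the 7 at 0.01.

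The accessory subunits of the matrix arm comprised 9 genes, and with TMM scaling all 9 were lower, 8 of them without overlap, with a median log2 fold change of -0.34. Ndufa2, a small subunit with a thioredoxin-like fold that sits on Ndufs1, had 53.5, 40.9 and 49.5 CPM in mAktDKO EDL and 90.4, 74.3 and 71.9 CPM in control EDL. At 39.2% lower, it had the lowest fold change of the family (log2 fold change -0.72, standard error 0.12, adjusted p = 0.0466, edgeR's quasi-likelihood test). Ndufs4, whose loss causes a Leigh-like disease (chr13:114287795-114388094), had 70.0, 66.7 and 69.0 CPM in mAktDKO EDL and 97.0, 100.1 and 84.5 CPM in control EDL (log2 fold change -0.45, standard error 0.086, adjusted p = 0.0482). Ndufa9, which binds NADPH near the quinone site (chr6:126821863-126849144), had 143, 140.3 and 149 CPM in mAktDKO EDL and 189.6, 193 and 169 CPM in control EDL (log2 fold change -0.35, standard error 0.082, adjusted p = 0.0623). All 3 were lower in every mAktDKO mouse. Ndufa5, Ndufs6, Ndufv3, Ndufa6 and Ndufa7 had log2 fold changes of -0.38 to -0.20 and adjusted p of 0.0693 to 0.169, and none of them overlapped. Ndufa5, a small helical subunit, lay at 46.3 to 56.1 against 63.7 to 72.4 CPM, mAktDKO mice given first. The zinc-binding Ndufs6 was at 45.3 to 49.8 against 55.5 to 63.2 CPM, and Ndufv3, a neighbour of Ndufv1, at 46.2 to 53.3 against 56.6 to 60.5 CPM. Ndufa6, an LYR protein that holds an acyl carrier protein on the matrix arm, was at 50.8 to 54.7 against 56.6 to 65.1 CPM and Ndufa7 at 31.3 to 33.7 against 36.1 to 38.6 CPM. Ndufa12 was the exception. This subunit, which takes its place late in assembly (chr10:94199035-94221440), had 50.0, 57.0 and 51.4 CPM in mAktDKO EDL and 54.2, 62.6 and 51.2 CPM in control EDL, with overlapping groups (log2 fold change -0.085, standard error 0.099, adjusted p = 0.618), and its sign turned when libraries were scaled by their totals (0.054) and without control mouse 3 (0.0010).

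The accessory subunits of the proximal membrane arm also comprised 9 genes, all lower with TMM scaling, 6 of them without overlap, with a median of -0.33, and Ndufs5 turned to 0.063 with library totals. Ndufa8 (chr2:36036324-36049338), a twin-cysteine protein on the intermembrane side, had 90.0, 74.1 and 76.0 CPM in mAktDKO EDL and 133, 129 and 113 CPM in control EDL. It was 35.9% lower (log2 fold change -0.64, standard error 0.10, adjusted p = 0.0394, edgeR's quasi-likelihood test). The same gene was chosen for RT-PCR in the study. Ndufa13, which crosses the membrane at the joint of the arms (chr8:69894163-69902558), had 106, 86.4 and 109 CPM in mAktDKO EDL and 171, 152 and 148 CPM in control EDL, 36.0% lower (log2 fold change -0.64, standard error 0.11, adjusted p = 0.0396). Ndufa11, a membrane subunit of the same region (chr17:56717762-56724248), had 54.2, 48.7 and 46.4 CPM in mAktDKO EDL and 73.3, 69.4 and 61.2 CPM in control EDL (log2 fold change -0.45, standard error 0.097, adjusted p = 0.0573). The 3 genes did not overlap between groups. Ndufs5, a twin-cysteine protein as Ndufa8 is, had 19.1, 18.9 and 22.4 CPM in mAktDKO EDL and 22.9, 18.7 and 21.8 CPM in control EDL (-0.073, adjusted p = 0.718), with the groups overlapping. Ndufa10, a subunit related to nucleoside kinases, was within 122 to 126 CPM in the mAktDKO mice and had 141, 148 and 126 CPM in the control mice (-0.16, adjusted p = 0.264). Ndufa1, Ndufa3, Ndufc1 and Ndufc2 lay between, with log2 fold changes of -0.36 to -0.24 and adjusted p of 0.0965 to 0.188. Ndufa3 was at 41.1 to 43.3 against 49.4 to 52.3 CPM and Ndufc1 at 54.6 to 61.6 against 65.4 to 82.8 CPM, both without overlap. Ndufa1, an X-linked gene, was at 26.9 to 33.5 against 32.9 to 37.2 CPM and Ndufc2 at 49.4 to 63.3 against 61.6 to 80.1 CPM, and both overlapped by the lowest control mouse, number 4.

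The distal membrane arm was represented by 10 Ndufb genes, and 9 of them were lower, all 9 without overlap. Their median log2 fold change, -0.46, was the lowest of the arms, and 4 of the 10 genes with an adjusted p under 0.05 were of this arm. No test of the difference between arms was made. Ndufb5, a subunit that crosses the membrane once (chr3:32737057-32751559), had the smallest p of the family, with 118, 105 and 114 CPM in mAktDKO EDL and 193, 179.8 and 156 CPM in control EDL. The means were 112 ± 6.74 against 176 ± 18.7 CPM (mean ± SD, n = 3 mice each), 36.5% lower (log2 fold change -0.65, standard error 0.098, adjusted p = 0.0326, edgeR's quasi-likelihood test). Ndufb2 (chr6:39592565-39599843) had 41.0, 35.2 and 34.9 CPM in mAktDKO EDL and 55.7, 58.3 and 52.3 CPM in control EDL (log2 fold change -0.58, standard error 0.093, adjusted p = 0.0394), and Ndufb6 (chr4:40270591-40279421) had 41.7, 40.7 and 42.0 CPM in mAktDKO EDL and 52.6, 61.9 and 56.2 CPM in control EDL (log2 fold change -0.46, standard error 0.085, adjusted p = 0.0474). Each of these small membrane subunits was lower in every mAktDKO mouse. Ndufb9, a matrix-facing subunit of the LYR family that holds an acyl carrier protein, had 188, 174 and 190.2 CPM in mAktDKO EDL and 272, 264 and 230.1 CPM in control EDL (log2 fold change -0.47, standard error 0.09, adjusted p = 0.0482). The twin-cysteine subunits Ndufb7 (-0.56, 0.0539) and Ndufb10 (-0.44, 0.0585), and the subunits Ndufb3 (-0.54, 0.0616), Ndufb8 (-0.36, 0.0715) and Ndufb11 (-0.34, 0.0653), given as log2 fold change and adjusted p, were lower without overlap but missed 0.05. Ndufb7 was at 42.6 to 54.1 against 65.8 to 80.1 CPM, mAktDKO mice first, and Ndufb10 at 99.1 to 111 against 125 to 155 CPM. Ndufb3 was at 35.6 to 43.8 against 49.8 to 67.4 CPM, Ndufb8 at 112 to 127 against 138 to 160.1 CPM and the X-linked Ndufb11 at 104 to 115 against 134 to 149 CPM. In each of these 5 genes mAktDKO mouse 2 was the lowest of the 6 mice. Ndufb4 (chr16:37647602-37654368) stood apart from its arm with 46.3, 51.1 and 55.0 CPM in mAktDKO EDL and 50.4, 51.5 and 49.1 CPM in control EDL. Its groups overlapped (log2 fold change 0.013, standard error 0.087, adjusted p = 0.942), and its value was -0.063 without mAktDKO mouse 3 and -0.0067 without control mouse 4.

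**Figure D3:**
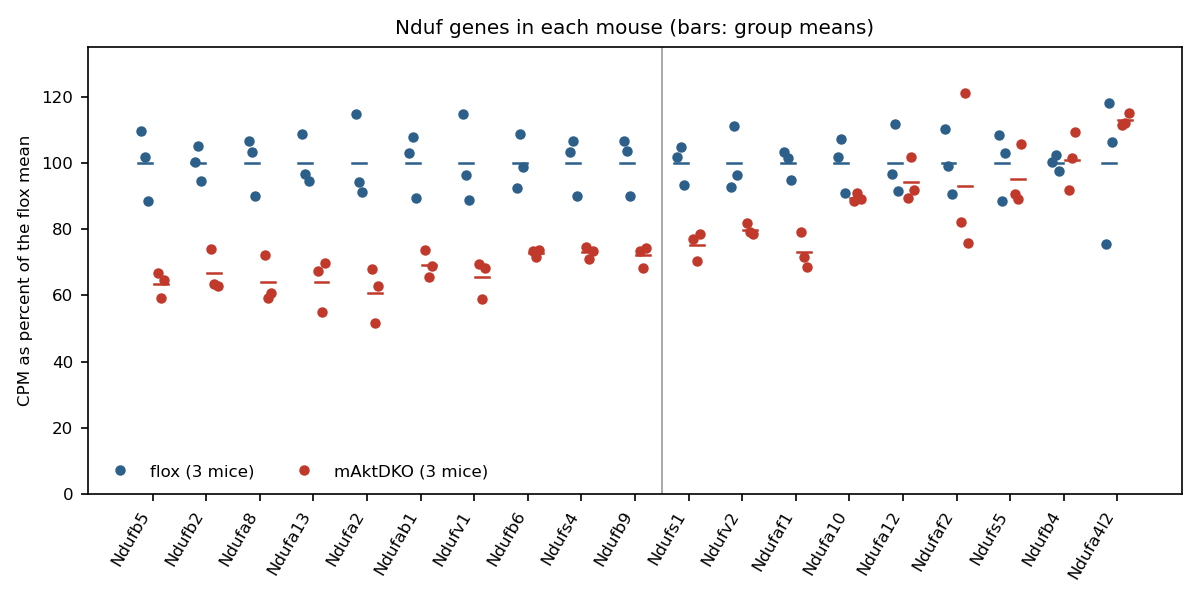
CPM of 19 Nduf genes in each mouse, as a percentage of the mean of the 3 control mice (y axis from 0), with bars at the group means. Left of the grey line are the 10 genes with an adjusted p under 0.05, whose mAktDKO values all lie below the control values, and right of it 9 others, among them Ndufb4, Ndufa12 and Ndufs5, whose groups overlap.

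Some of the subunits have copies elsewhere in the genome. RefSeq names 7 copies or pseudogenes of 6 members, and none of the copies was a row of the table. They belong to Ndufb4, Ndufs5 and Ndufa12, which had the smallest differences of all accessory subunits (0.013, -0.073 and -0.085), and equally to Ndufab1, Ndufa11 and Ndufs6 (-0.53, -0.45 and -0.34). Short reads of these genes may have been shared with a copy, so their levels are uncertain, and the part of the copies in the result was not tested.

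The remaining 3 genes bear the family name but do not belong to an arm alone. Ndufab1, the mitochondrial acyl carrier protein, which also serves lipoic acid synthesis (chr7:122086815-122101848), had 47.3, 42.1 and 44.2 CPM in mAktDKO EDL and 66.2, 69.2 and 57.4 CPM in control EDL (log2 fold change -0.53, standard error 0.095, adjusted p = 0.0474, edgeR's quasi-likelihood test). Ndufa4, named for complex I but since assigned to cytochrome c oxidase (chr6:11900372-11907450), had 156, 147 and 149 CPM in mAktDKO EDL and 179, 190.3 and 173 CPM in control EDL (log2 fold change -0.26, standard error 0.077, adjusted p = 0.0949). Both were lower in every mAktDKO mouse, Ndufab1 by 30.7% and Ndufa4 by 16.7%. Ndufa4l2, a paralogue of Ndufa4 that hypoxia induces in many cells (chr10:127509274-127517154), had the highest log2 fold change of the family, with 12.7, 12.8 and 13.1 CPM in mAktDKO EDL and 8.60, 13.4 and 12.1 CPM in control EDL. The groups overlapped (log2 fold change 0.18, standard error 0.16, adjusted p = 0.508), as control mouse 2 was low and control mouse 3 was the highest of all 6. Without control mouse 2 its log2 fold change was 0.0078, below that of Ndufb4 (0.013), and without control mouse 3 it was 0.31.

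Per kilobase of transcript (RPKM, from the median spliced length), the assembly factors stood at 5.14 to 23.1 in the control mice. The core subunits began at 72.8 and the accessory subunits reached 393 in Ndufa4, while the accessory genes Ndufa4l2 (12.2) and Ndufb2 (23.0, its length being uncertain) lay within the range of the assembly factors. All 7 assembly factors were lower with TMM scaling, 3 without overlap, with a median log2 fold change of -0.36, while with library totals Ndufaf2 and Ndufaf4 turned to 0.044 and 0.0052. None had an adjusted p under 0.05 in edgeR, where 4 had an unadjusted p under 0.05. DESeq2 called 0 of them at 0.01 and gave 2 of the 7 an adjusted p under 0.05 (5.49% of all genes to which it gave one were lower at this level), Ndufaf1 (0.0122) and Ndufaf5 (0.0311). Ndufaf1, which builds the membrane arm together with Ecsit and Acad9 (chr2:119655446-119662839), had 26.5, 24.0 and 23.0 CPM in mAktDKO EDL and 34.7, 34.1 and 31.8 CPM in control EDL (log2 fold change -0.45, standard error 0.09, adjusted p = 0.052). Ndufaf5, which hydroxylates Ndufs7 (chr2:140170584-140218965), had 11.9, 12.2 and 14.1 CPM in mAktDKO EDL and 17.8, 18.7 and 17.2 CPM in control EDL (log2 fold change -0.49, standard error 0.11, adjusted p = 0.0573). Ndufaf6, needed early in assembly (chr4:11048991-11076237), had 8.31, 6.83 and 6.51 CPM in mAktDKO EDL and 10.8, 10.4 and 8.17 CPM in control EDL (log2 fold change -0.44, standard error 0.16, adjusted p = 0.138). The groups were apart for the first 2 genes, and for Ndufaf6 mAktDKO mouse 1 lay just above control mouse 4. Ndufaf3, a partner of Ndufaf4 on the quinone-binding module, was lower without overlap at 5.76 to 7.67 against 8.01 to 9.70 CPM (-0.36, adjusted p = 0.179). Ndufaf4, at 33.5 to 37.3 against 33.3 to 44.0 CPM, and Ndufaf7, a methyltransferase, at 10.4 to 12.5 against 10.7 to 17.1 CPM, overlapped (-0.13 and -0.28, adjusted p = 0.484 and 0.337). Without control mouse 3 these values were -0.045 for Ndufaf4 and -0.085 for Ndufaf7, and they were -0.24 for Ndufaf4 without control mouse 2 and -0.43 for Ndufaf7 without control mouse 4.

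Ndufaf2, a paralogue of Ndufa12 that holds its place during assembly (chr13:108052589-108158652), had 2.6, 3.8 and 2.4 CPM in mAktDKO EDL and 3.50, 3.14 and 2.87 CPM in control EDL (log2 fold change -0.10, standard error 0.23, adjusted p = 0.814). Neither of the pair was apart between the groups. Ndufaf8, a partner of Ndufaf5, is listed under the older symbol 1810043H04Rik and so lies outside the 45 genes. It had 4.95, 4.67 and 4.39 CPM in mAktDKO EDL and 6.50, 6.05 and 6.05 CPM in control EDL, lower without overlap (log2 fold change -0.41, standard error 0.14, adjusted p = 0.131).

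Composition within the family does not depend on the scaling of the libraries. Of all Nduf counts, the core subunits took 37.8% to 38.8% in the mAktDKO mice and 38.9% to 39.8% in the control mice, the accessory subunits 58.7% to 59.2% against 57.8% to 58.4%, and the assembly factors 2.56% to 2.96% against 2.38% to 2.71%. The core share was thus lower and the accessory share higher in every mAktDKO mouse, while the assembly share overlapped. For single members, the share of all Nduf counts was lower without overlap for 8 genes and higher for 11. Of all tested genes set against the same sum, 0.985% were lower and 61.6% higher in this way, as the sum itself was lower. Shares add up to a whole, so that a lower share of some members raises that of others. The 8 were Ndufa2, Ndufb5, Ndufa13, Ndufa8, Ndufv1, Ndufb2, Ndufab1 and Ndufb9. Ndufb5 went from 3.75%, 3.55% and 3.47% in the control mice to 3.09%, 3.02% and 3.05%, and Ndufv1 from 7.04%, 6.02% and 6.24% to 5.76%, 5.37% and 5.78%. The 11 were Ndufa4l2, Ndufb4, Ndufs5, Ndufa12, Ndufa10, Ndufa7, Ndufa6, Ndufa1, Ndufa3, Ndufa4 and Ndufb8. Ndufb4 went from 0.978%, 1.02% and 1.09% to 1.21%, 1.47% and 1.47%, and Ndufa10 from 2.73%, 2.92% and 2.79% to 3.20%, 3.62% and 3.30%.

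**Figure D4:**
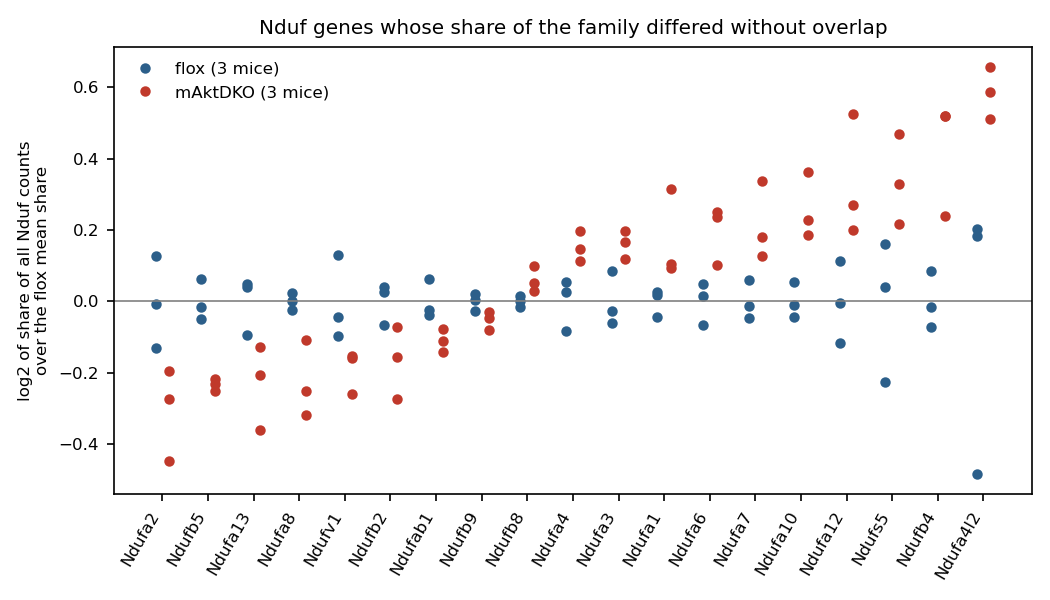
Share of each gene in the summed Nduf counts of each mouse, as log2 of its ratio to the mean share in the control mice (y axis), for the 19 members whose groups did not overlap. The 8 genes at the left had a lower share and the 11 at the right a higher share in all 3 mAktDKO mice.

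Other genes of the pathway were read beside the members. Of 11 assembly genes without the Nduf name, 10 were lower (9 with library totals), 6 without overlap. Their median was -0.26 on the log2 scale (-0.12 with library totals). In edgeR 0 of them had an adjusted p under 0.05 (5 at an unadjusted p), and DESeq2 called 0 at 0.01. Ecsit, a partner of Ndufaf1, had 44.3, 42.5 and 44.2 CPM in mAktDKO EDL and 64.3, 57.0 and 53.0 CPM in control EDL (log2 fold change -0.41, standard error 0.09, adjusted p = 0.0573, edgeR's quasi-likelihood test). Dmac2, listed as Atp5sl and needed for the distal arm, was lower (-0.55, adjusted p = 0.0691), as was Nubpl, which delivers iron-sulfur clusters (-0.61, adjusted p = 0.131). All 8 complex II genes were lower (7 with library totals), with a median of -0.34 (-0.20 with library totals), 4 without overlap. In edgeR 0 of them had an adjusted p under 0.05 (6 at an unadjusted p), with Sdhb nearest at -0.46, adjusted p = 0.0598, and DESeq2 called this 1 gene at 0.01. All 9 subunits of complex III, which takes the electrons on from ubiquinol, were lower without overlap, and lower with library totals too, with a median of -0.44, and 4 of them had an adjusted p under 0.05 in edgeR, while DESeq2 called 5 at 0.01. Its core protein Uqcrc1 had 439, 389.8 and 430.1 CPM in mAktDKO EDL and 659, 642 and 564 CPM in control EDL (log2 fold change -0.57, standard error 0.095, adjusted p = 0.0396). Of 13 genes of the TCA cycle, which supplies the NADH, 12 were lower (10 with library totals), 8 without overlap, with a median of -0.21. Of 10 genes taken as a measure of mitochondrial mass, 10 were lower in both scalings. With TMM scaling 9 of them were lower without overlap, with a median of -0.22. With library totals, under which the median of all genes was 0.16, the medians of these 2 lists were -0.068 and -0.078. Both lists had 0 genes at an adjusted p under 0.05 in edgeR and 6 each at an unadjusted p under 0.05. DESeq2 at 0.01 called 3 genes of the TCA cycle lower (Mdh2, Fh1 and Idh3b) and 1 of the mass genes (Vdac1).

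Of 14 regulators of respiratory genes, 7 were lower and 7 higher (5 and 9 with library totals). Their median log2 fold change was -0.0064 with TMM scaling (-0.059 to 0.049 with each mouse left out in turn) and 0.13 with library totals. The list included Foxo1, Foxo3 and Foxo4, whose groups overlapped. With TMM scaling their log2 fold changes were -0.073, -0.15 and -0.082 (adjusted p = 0.754, 0.431 and 0.722, edgeR). Esrra, the estrogen-related receptor that acts with the PGC-1 coactivators on these genes, had 53.1, 47.0 and 46.0 CPM in mAktDKO EDL and 86.2, 72.6 and 68.7 CPM in control EDL and was the one with an adjusted p under 0.05 (log2 fold change -0.64, standard error 0.11, adjusted p = 0.0396, edgeR's quasi-likelihood test). Ppargc1b, a coactivator of this receptor, had 19.5, 17.4 and 19.7 CPM in mAktDKO EDL and 25.8, 26.6 and 23.7 CPM in control EDL (log2 fold change -0.43, standard error 0.096, adjusted p = 0.0598). Esrrb, of the same receptor family, had 3.80, 4.19 and 3.43 CPM in mAktDKO EDL and 12.0, 5.18 and 5.44 CPM in control EDL (log2 fold change -0.98, standard error 0.32, adjusted p = 0.115). All 3 were lower in every mAktDKO mouse, although for Esrrb control mouse 2 was far above the other controls. DESeq2 gave the same 3 genes an adjusted p under 0.05, at 6.4e-05 for Esrra, 0.0358 for Ppargc1b and 0.0328 for Esrrb. Tfam, a further regulator, was also lower without overlap, with 34.6, 31.4 and 35.2 CPM in mAktDKO EDL and 45.4, 39.0 and 38.3 CPM in control EDL. Its log2 fold change was -0.28 (unadjusted p = 0.0181, adjusted p = 0.133, edgeR). Other regulators had a higher fitted level. Ppargc1a, the PGC-1alpha coactivator, had 82.0, 54.8 and 89.4 CPM in mAktDKO EDL and 59.3, 68.1 and 64.0 CPM in control EDL (log2 fold change 0.24, adjusted p = 0.382, edgeR). Esrrg, the third receptor of the Esrra family, had 33.9, 47.1 and 43.1 CPM in mAktDKO EDL and 40.4, 34.9 and 27.4 CPM in control EDL (0.27, adjusted p = 0.316), and Nrf1, a factor of nuclear genes for respiration, 11.9, 13.5 and 14.9 CPM against 12.0, 11.7 and 8.92 CPM (0.31, adjusted p = 0.227). The groups overlapped for these 3 genes. Yy1, a factor that acts with the PGC-1 coactivators, had 34.3, 36.8 and 36.8 CPM in mAktDKO EDL and 29.4, 31.5 and 30.7 CPM in control EDL, higher without overlap (0.24, unadjusted p = 0.0166, adjusted p = 0.13, edgeR).

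**Figure D5:**
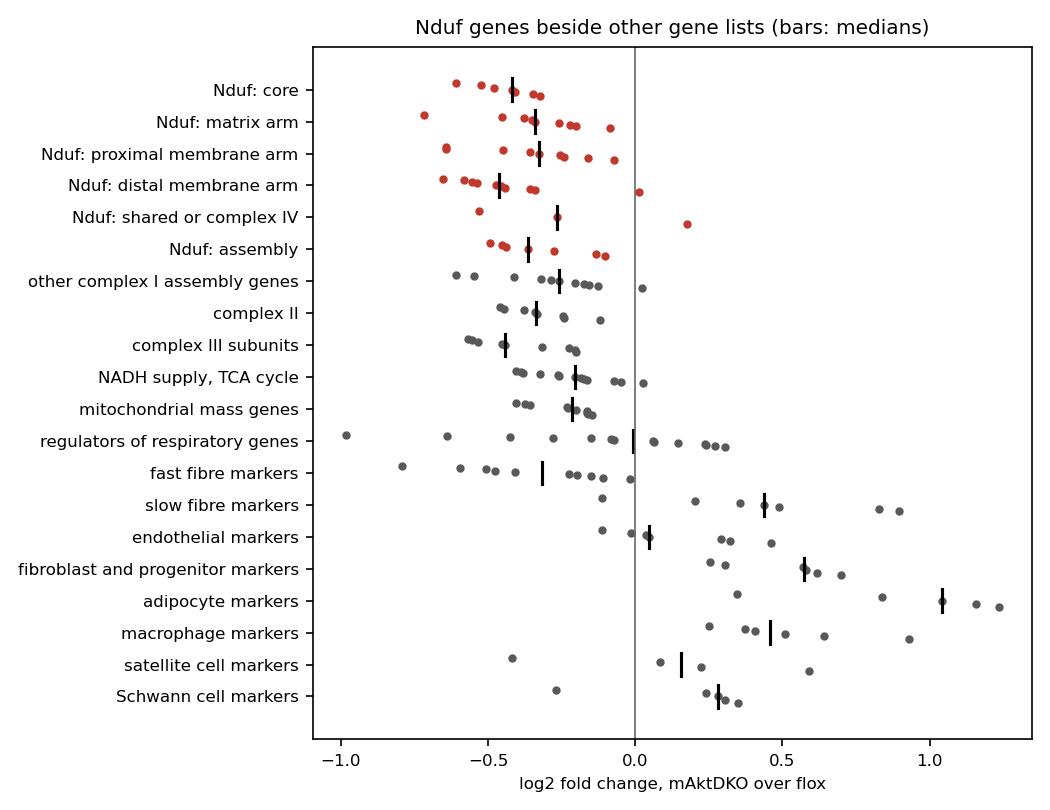
Log2 fold change (x axis, TMM scaling) of every gene on the lists, 1 point a gene and a bar at the median, with the Nduf genes in red and grouped by place. The Nduf lists and those of complexes II and III lie mostly left of 0. So do the lists of other assembly genes, the TCA cycle, mitochondrial mass and fast fibre markers. The lists of fibroblast, adipocyte and macrophage markers lie right of 0.

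Markers of fibre type and of other cell types stood as follows beside the lower Nduf levels. All 10 fast fibre markers had a lower fitted level with TMM scaling (8 with library totals), 6 without overlap. Their median was -0.32 on the log2 scale with TMM scaling and -0.18 with library totals. In edgeR 0 of them had an adjusted p under 0.05 and 5 an unadjusted p under 0.05, whereas DESeq2 called 4 lower at 0.01 (Myh1, Tnni2, Tnnc2 and Pvalb). Myh4, the fast fibre marker with the most counts, hardly differed, at 47045 to 52960 against 47022 to 55567 CPM (log2 fold change -0.018). Its groups overlapped, as did those of Actn3, Tnnt3 and Mylpf (-0.11, -0.15 and -0.20). Of 7 slow fibre markers, 6 had a higher fitted level with TMM scaling (7 with library totals), none without overlap. Their median was 0.44 with TMM scaling and 0.59 with library totals, and their summed levels were 679.8 to 1317 CPM against 607 to 884 CPM. All 6 fibroblast and progenitor markers had a higher fitted level (median 0.57), 3 of them without overlap, with summed levels of 27726 to 33632 against 10845 to 27131 CPM. The same held for all 5 adipocyte markers (median 1.04), 1 without overlap, with 149 to 232 against 128 to 156 CPM, and for all 6 macrophage markers (median 0.46), 3 without overlap, with 87.2 to 112 against 54.7 to 94.3 CPM. The directions of these 3 lists held in both scalings. Control mouse 2 was the lowest of the controls in the fibroblast sum (10845 CPM, the others 23176 and 27131) and in the macrophage sum (54.7 CPM, the others 94.3 and 86.3). Without it the medians of these 2 lists were 0.27 and 0.26, and with any other mouse left out they were 0.41 to 0.76 and 0.41 to 0.62. The adipocyte median was 0.65 without mAktDKO mouse 2 and 0.68 without control mouse 3, and 0.90 to 1.40 without the others. The slow fibre median was 0.27 without mAktDKO mouse 2 and 0.67 without control mouse 3, and 0.32 to 0.65 without the others. Fitted levels of endothelial markers were higher for 5 of 7 (7 with library totals), with 513 to 611 against 442 to 574 CPM. Those of Schwann cell markers were higher for 4 of 5 (378 to 489.6 against 311 to 393 CPM). Those of satellite cell markers were higher for 3 of 4, although their summed level was not (21.2 to 23.9 against 22.9 to 30.2 CPM). Cdh15, the satellite cell marker with the most counts, was lower without overlap (log2 fold change -0.42). Myf5 was higher without overlap (0.59), and Pax7 and Calcr overlapped. The medians of these 3 lists were 0.046, 0.28 and 0.15 with TMM scaling and 0.19, 0.42 and 0.29 with library totals. With TMM scaling and each mouse left out in turn, the endothelial median was 0.0071 (without mAktDKO mouse 1) to 0.16 (without control mouse 3). The Schwann cell median was then 0.19 to 0.39, and the satellite cell median 0.081 (without mAktDKO mouse 2) to 0.25 (without mAktDKO mouse 1). None of these markers had an adjusted p under 0.05 in edgeR and none was at 0 in all mice. DESeq2 at 0.01 called 1 marker higher, the fibroblast gene Dcn, and none but the 4 fast fibre genes lower. Their part in the lower Nduf levels was not tested.

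The members are also short transcripts, with a median spliced length of 870.5 bases against 2778 for all tested genes with a length. Among 1763 other genes with a length within the members' quartiles (599 to 1411 bases), the median log2 fold change was -0.11 and 62.0% were below 0. With the trend with length removed, 40 of the 45 members stayed below it, with a median of -0.28, against 50.5% of all tested genes with a length and a median of -0.0040. The part of length in the lower Nduf levels beyond these values was not tested.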

How the data were processed

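The authors sequenced EDL of 3 mAktDKO and 3 control mice as rRNA-depleted, strand-specific, paired-end libraries. The authors mapped the reads to mm10 with STAR (2.6.1b in the submitters' processing notes, another release in the methods) and deposited the expected counts of RSEM 1.3.1, unscaled, for 24411 genes. The annotation was not given in the sources used here. RSEM divides reads that fit several genes among them. Columns of the control mice bear the numbers 2 to 4, whereas their labels run from 1 to 3, and each was used only as a member of its group.

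The deposited expected counts were rounded to whole numbers, and edgeR 4.0.16 in R 4.3.3 was used for the filter (filterByExpr with a minimum count of 10), TMM scaling and the quasi-likelihood test, with Benjamini-Hochberg adjustment over all 12892 genes, 6 mice in the fit and genotype as the only term. The standard error is the log2 fold change divided by the square root of F. Mean log2 CPM used a prior count of 2. DESeq2, the test that the study used, was run here as an alternative in release 1.42.0. The steps were tested on simulated counts, in which the changed genes differed more than any member did. How well smaller changes, such as those of the members, are found was not tested. RPKM used the median spliced length of the protein-coding transcripts of GENCODE M21, and the lengths of Ndufb2 and Ndufab1 are uncertain because of long isoforms.

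Named with full values were, in each place in the complex, the 3 members with the smallest p, Ndufa8, Ndufa4, Ndufa4l2, Ndufab1, Ndufa12, Ndufaf2, members with a log2 fold change above 0, and at most 3 genes of other lists. Other genes named were chosen after their values were seen. The members, classes and lists were chosen with earlier results of these data known. The result of 1 member is not reported here, although it counts in the class and family totals. Older symbols were matched through RefSeq synonyms. Intervals of depth cover counting error only. Alternatives were other scalings, filters and thresholds, DESeq2, another prior count, each mouse left out and, chosen after seeing the data, removal of a loess trend with transcript length.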

Additional observations from a re-analysis of the deposited data

How the results depend on the processing

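No paired analysis was possible because numbers 2 to 4 on the columns of control mice differ from numbers 1 to 3 in their labels. The number of members called at an adjusted p under 0.01 was 0 with each scaling, with each filter and without each mouse in edgeR, 19 with DESeq2's Wald test, and 10 when edgeR's threshold was 0.05. At the latter threshold it was 20 without a filter (1.56% of all genes were called lower), 13 with at least 10 counts in every mouse (1.48%), 6 with upper-quartile scaling (0.698%), 3 with library totals (0.450%) and 27 with DESeq2 (5.49%), against 10 (0.915%) as reported. Scaling by library totals raised the median of all genes by 0.14 and took the class medians to -0.28 (core), -0.22 (accessory) and -0.22 (assembly factors), and turned Ndufa12 (0.054), Ndufaf2 (0.044), Ndufaf4 (0.0052) and Ndufs5 (0.063) above 0. Removal of the trend with transcript length, chosen after seeing the data, took the accessory median to -0.26 and the assembly factors from -0.36 to -0.30, while the core median was -0.42 as before. With each mouse left out in turn, Ndufa12 ranged from -0.15 to 0.0010 (above 0 without control mouse 3), Ndufaf2 from -0.34 to 0.0072 (above 0 without mAktDKO mouse 3) Ndufs5 from -0.17 to -0.012 and Ndufb4 from -0.063 to 0.075 (-0.063 without mAktDKO mouse 3 and -0.0067 without control mouse 4). The members lower without overlap then numbered 34 to 39, beside 18.8% to 23.7% of all genes in these smaller groups (16.6% with all mice), and those higher without overlap 0 to 1 (17% to 21.9% of all genes, against 14.6% with all mice). Akt2 missed 0.01 without any one of the mAktDKO mice, and its log2 fold change was -1.63 to -1.43 over all mice left out. The cause of these differences was not tested. With 3 mice a group, the member with the fewest counts, Ndufaf2, had the largest standard error of the family (0.23).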
